A study of Callithrix jacchus with 4 samples.

Results

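SPP1, APOE, TREM2, GPNMB and LPL were taken by name as 5 genes of lipid handling and phagocytosis from the 32323 genes listed for marmoset primary visual cortex (V1). For each gene, unique molecular identifiers (UMIs, each counting 1 captured RNA molecule) were summed per library and annotated cell type, and injured nuclei were set against control nuclei. The injured cohort was 3 adult marmosets (Callithrix jacchus), each with 1 library of nuclei from V1 grey matter, ischemic core and penumbra included, 7 days after endothelin-1 (ET-1), a peptide that constricts blood vessels, was injected into V1. The control cohort was V1 of 3 adult marmosets without a lesion, pooled in 1 library. Sex and strain were not given in the sources used here. The control cohort therefore had no measured spread between animals, and every test below took its spread from the injured animals. The protocol for isolating nuclei, the sequencing facility and instrument and the removal of doublets also differed between cohorts, so what they contributed cannot be told apart from the injury.

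These genes belong to the program with which phagocytes take up and digest lipid-rich debris. SPP1 encodes osteopontin, a secreted phosphoprotein that binds integrins and CD44. TREM2 is a lipid-sensing receptor of myeloid cells that signals through the adaptor TYROBP and the kinase SYK. GPNMB is a transmembrane glycoprotein of lysosome-rich phagocytes. APOE is the main lipid-carrying apolipoprotein of the brain, made by astrocytes and by phagocytes. LPL is the lipase that releases fatty acids from triglycerides in lipoproteins. In rodent brain, microglia that surround damage or plaques are known for raising several of these genes together.

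The injured libraries held 7500 to 12527 nuclei with medians of 3531 to 4504.5 UMIs, and the control library held 8610 nuclei with a median of 2117. Annotated Microglia numbered 7733 nuclei in the injured cohort and 129 in the control library, where they held 124463 UMIs, so 3 control UMIs of a gene correspond to 24.1 CPM (counts scaled to a total of 1000000 UMIs). Injured libraries shared 15 to 27 cell barcodes in pairs, and each shared 16 to 26 with the control library. The Microglia label was checked against its markers. P2RY12 was at 172, 116 and 181 CPM in injured replicates 1, 2 and 3 and at 233 CPM in the control library. Of the 4 other resident markers listed, 3 were lower in the injured libraries, CX3CR1 at 5.81 to 14.5 CPM against 233 CPM, CSF1R at 174 to 212 CPM against 795 CPM and SALL1 at 14.5 to 16.5 CPM against 64.3 CPM. AIF1 was higher, at 71.7 to 130 CPM against 16.1 CPM. The 9 listed markers of blood monocytes and perivascular macrophages summed to 1656 to 3159 CPM in injured Microglia, and the 7 listed for control to 1053 CPM. Of these 7, 4 were above control in all 3 injured libraries, F13A1 at 872 to 1633 CPM against 410 CPM, CD163 at 242 to 692 CPM against 72.3 CPM, VCAN at 120 to 298 CPM against 8.03 CPM and LYZ at 191 to 292 CPM against 8.03 CPM. LYVE1 was below control in all 3, at 2.09 to 25.1 CPM against 241 CPM, and the injured values of MRC1 (104 to 326 CPM against 297 CPM) and CCR2 (12.3 to 20.2 CPM against 16.1 CPM) lay on both sides of control. Of the Microglia markers, CD74 was at 1007 to 1416 CPM against 8.03 CPM, GPR34 at 20.3 to 39.8 CPM against 289 CPM and DOCK8 at 1093 to 1239 CPM against 1253 CPM. The endothelial marker FLT1 was at 106 to 127 CPM against 570 CPM, from 71 control UMIs. Control nuclei annotated as endothelial held FLT1 at 299 CPM. The other endothelial markers, IGFBP7 and SLC2A1, were at 0 in control Microglia. Markers of excitatory neurons summed to 1146 to 1229 CPM against 1687 CPM. The part of such other cells or of their RNA in the Microglia values below was not tested.

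APOE could not be measured. It was listed at 0 in all 29537 injured nuclei and was not listed for control. In the injured table it stood in a run of 9 consecutive rows, APOC1 and APOC2 among them, that held 1 UMI in all, and none of the 9 was listed for control. In all, 33.8% of the genes listed for the injured cohort had no UMI. A count of 0 in 29537 nuclei would allow a share of nuclei with a UMI of up to 0.0102%, for counting error only. No level, share or injury effect of APOE is given for any cell type.

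Among injured nuclei SPP1 was the most abundant of the other 4 genes. By annotated cell type it was highest there in the oligodendrocyte lineage and not in Microglia. In oligodendrocytes (Oligo) its level was 602, 632 and 701 CPM in injured replicates 1, 2 and 3 and 120 CPM in the control library. In oligodendrocyte precursors (OPC) it was 886, 488 and 1158 CPM against 42.8 CPM, from 8 control UMIs. OPC markers there summed to 3484, 3674 and 3398 CPM against 4633 CPM. Microglia markers summed to 358, 314 and 217 CPM against 128 CPM for the 4 listed in control. Astrocyte markers summed to 1305, 841 and 1354 CPM against 1091 CPM. The part of such RNA in the OPC values was not tested. In Microglia SPP1 was at 430, 76.2 and 402 CPM against 64.3 CPM, and the control value came from 8 UMIs in 3 nuclei. All 3 injured libraries lay above control in each of these cell types, but injured replicate 2 lay close to control in Microglia.

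The same library was low in the other cell types. In nuclei annotated as endothelial (Endo) SPP1 was at 586, 74.2 and 367 CPM against 14.7 CPM. Endothelial markers there summed to 3404 to 4096 CPM in the injured libraries and 848 CPM in control, where astrocyte markers summed to 1171 CPM. SPP1 in astrocytes (Astro) was at 142, 38.6 and 94.7 CPM against 20.8 CPM. In inhibitory neurons (InN) the values were 94.1, 20.7 and 80.2 CPM against 6.16 CPM. Excitatory neurons (ExN) held 80.6, 15.5 and 65.9 CPM against 3.63 CPM. Injured replicate 2 thus had the lowest SPP1 level of the injured libraries in 6 of the 7 cell types, Oligo being the exception.

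Ordered by mean injured level, OPC (844 ± 337 CPM, SD, n = 3) and Oligo (645 ± 50.9 CPM) came first, followed by Endo (342 ± 257 CPM), Microglia (303 ± 197 CPM), Astro (91.9 ± 52.0 CPM), InN (65.0 ± 39.0 CPM) and ExN (54.0 ± 34.1 CPM). OPC lay above Oligo in 2 of 3 animals and Endo above Microglia in 1 of 3, so neither pair was ordered beyond the spread between animals. Oligo lay above Endo in all 3 animals without overlap. Within Endo, deposited cluster 19, low in the endothelial marker FLT1, held SPP1 at 1309.9, 180 and 1096 CPM in replicates 1, 2 and 3. That was above Oligo in replicates 1 and 3 and above OPC in replicate 1. Endo cluster 14, high in FLT1, held 203, 28.5 and 135 CPM, below Microglia in all 3 animals. In the control library the order was Oligo, Microglia, OPC, Astro, Endo, InN and ExN. Cell types were assigned from clusters of these same nuclei, so levels between types are a description without a test.

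**Figure D1:**
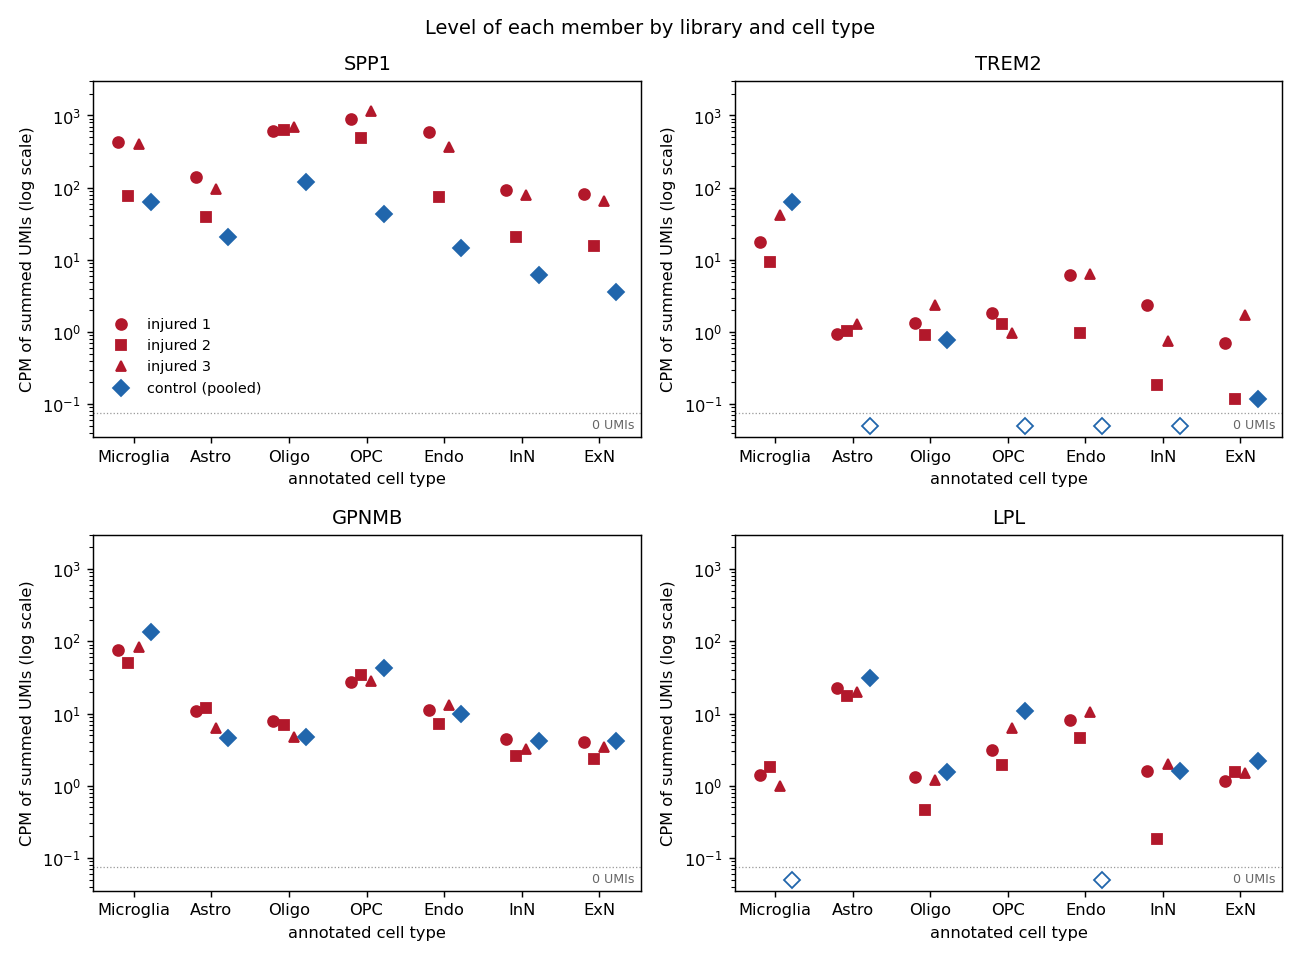
CPM of summed UMIs (vertical, log scale) of SPP1, TREM2, GPNMB and LPL in 7 annotated cell types (horizontal), with red symbols for the 3 injured libraries and blue diamonds for the pooled control library. Open symbols below the dotted line mark sums with 0 UMIs. SPP1 lies above control in every cell type, with injured replicate 2 near control in Microglia, while GPNMB and TREM2 are highest in Microglia and LPL in Astro.

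The injury effect was tested by edgeR's quasi-likelihood test on the sums of each cell type, with Benjamini-Hochberg adjustment over all genes tested. A call needed an adjusted p under 0.01, a natural-log fold change beyond 0.25 in either direction, and detection in 10% or more of nuclei in 1 cohort or the other. SPP1 and GPNMB passed the filter on low counts in 7 cell types, LPL in 5 and TREM2 in 3. Of these 22 tests 1 was called, SPP1 in Oligo, with a log2 fold change of 2.53 (SE 0.20, edgeR adjusted p = 0.00235). In Oligo 0.774% of the 11631 genes tested were called. The Oligo call held under all 11 alternative settings, between 2.04 with nuclei thinned to 500 UMIs and 2.59 without injured replicate 1. Some markers of other cell types were also higher in injured Oligo. The 5 Microglia markers summed to 373, 321 and 272 CPM against 75.2 CPM for the 4 listed in control, the 4 other resident markers to 49.2, 40.7 and 31.5 CPM against 18.8 CPM, and the 3 Endo markers to 75.5, 90.9 and 118 CPM against 39.1 CPM. The 9 monocyte and macrophage markers summed to 135, 58.5 and 134 CPM against 60.3 CPM for the 7 listed in control. The part of such RNA in the SPP1 rise in Oligo was not tested.

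In the other 6 cell types the fitted rise of SPP1 was not called. It was 4.43 in OPC (SE 0.68, edgeR adjusted p = 0.0368), where 0.0697% of genes were called, 3.45 in InN (SE 0.87, edgeR adjusted p = 0.0264), where 3.41% were called, and 3.99 in ExN (SE 1.03, edgeR adjusted p = 0.0348), where 3.85% were called. In Astro it was 2.24 (SE 0.77, edgeR adjusted p = 0.0971), and 1.5% of genes were called there. In Microglia it was 2.47 (SE 1.54, edgeR adjusted p = 0.435), and edgeR called 0% of the 13470 genes tested there, of which 2857 had an unadjusted p below 0.05 and DESeq2 called 318. Endo had 3 control UMIs, and the ratio of pooled levels there was 20.7 (95% counting interval 7.07 to 100), with 6.18% of genes called and SPP1 not among them (edgeR adjusted p = 0.0864).

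The number of cell types in which SPP1 was called changed with the setting. The number of all genes called also moved with these settings, as given in the last section. The counts below are therefore not read as particular to SPP1. Without injured replicate 2 SPP1 was called in 7 of 7 cell types, with a log2 fold change in Microglia of 2.93 (edgeR adjusted p = 0.00133). Without injured replicate 1 it was called in 1 cell type and without injured replicate 3 in 4. DESeq2 called it in 3 (Oligo, OPC and ExN), the fit without a filter on low counts in 2 (Oligo and OPC) and nuclei with at most 2500 genes in 2 (Oligo and InN). With Microglia nuclei thinned to 500 UMIs, the estimate there was 4.50 (SE 2.01, edgeR adjusted p = 0.281), and only 1 control nucleus then held an SPP1 UMI.

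**Figure D2:**
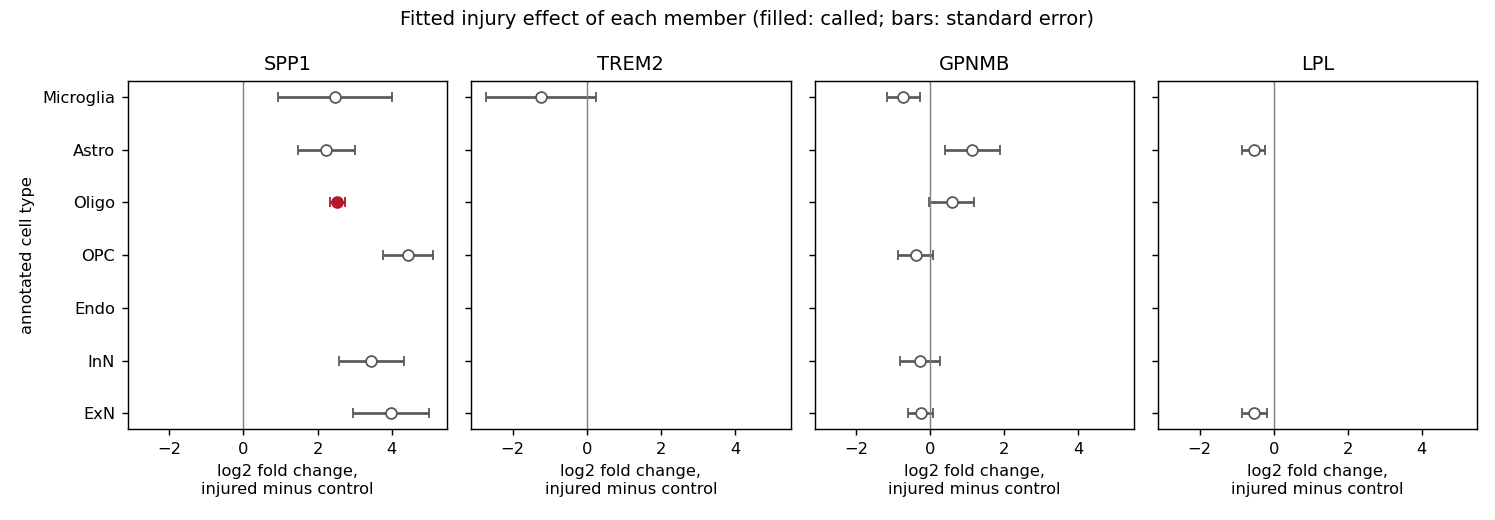
Fitted log2 fold change between injured and control libraries (horizontal, bars are standard errors) for the 4 measured genes in each cell type (vertical). Filled symbols are called, and sums with 0 to 3 control UMIs or below the filter are left out. SPP1 in Oligo (2.53) is the single filled symbol, and the SPP1 bar in Microglia is the widest of its panel.

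Shares of nuclei with an SPP1 UMI were read against InN, which served as the background for free RNA. In Microglia 48.3%, 11.6% and 40.0% of nuclei in injured replicates 1, 2 and 3 held at least 1 UMI, against 2.33% in the control library (exact 95% interval 0.482 to 6.65). In InN these shares were 43.6%, 9.29% and 31.3% against 1.68%, at higher median depths of 4846.5 to 6628 UMIs per nucleus, against 2428 to 3930 UMIs in Microglia. Microglia lay close to InN in each library, so these shares alone are not read as expression. Oligo stood above InN with 71.5%, 58.5% and 67.9% of nuclei against 12.4%, and OPC with 83.5%, 42.4% and 66.8% against 4.09%.

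At equal depth SPP1 was found in a larger share of Microglia than of InN in each injured library. With each nucleus thinned to 500 UMIs, which kept every nucleus, SPP1 was found in 12.6%, 2.86% and 12.1% of injured Microglia against 0.775% of control Microglia, and in 6.02%, 1.18% and 4.99% of injured InN against 0.396%. The shallow InN cluster 9 (329 nuclei, median 1610 UMIs) had thinned shares of 10.7%, 4.26% and 6.06%, above Microglia in replicate 2. The deeper InN clusters 5 and 24 lay below Microglia in each injured library. The part of free RNA in the Microglia shares was not tested. In Oligo the thinned shares were 25.6%, 23.9% and 27.3% against 7.31%. At least 5 SPP1 UMIs in a nucleus were found in 5.81%, 0.483% and 5.14% of injured Microglia, in 27.1%, 6.43% and 21.7% of OPC and in 10.6%, 4.58% and 8.80% of Oligo. In control Microglia 1 nucleus reached 5 UMIs (0.775%), above the share in injured replicate 2. In InN these shares were 0%, 0% and 0.277%, and 0 of 399 and 0 of 1098 nuclei allow shares of up to 0.752% and 0.273%.

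SPP1 was unevenly spread within Microglia and within other cell types. The 5% of injured Microglia nuclei with the most SPP1 UMIs held 64.2%, 67.8% and 64.3% of the SPP1 UMIs of their library, and the highest single nucleus held 345. In Oligo the corresponding 5% held 21.9%, 26.0% and 25.6%, and the highest nucleus held 23 UMIs. In Endo they held 57.5%, 71.1% and 60.9% and in OPC 40.9%, 59.4% and 56.4%, with up to 105 and 188 UMIs in a nucleus. In Astro they held 35.1%, 58.4% and 36.4% and in ExN 24.8%, 74.7% and 33.1%, with up to 37 and 41 UMIs in a nucleus. In InN they held 22.1%, 58.4% and 31.2%, with at most 4, 3 and 8 UMIs in a nucleus, so in injured replicate 2 the shares in InN and Astro lay near that in Microglia and the share in ExN above it.

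**Figure D3:**
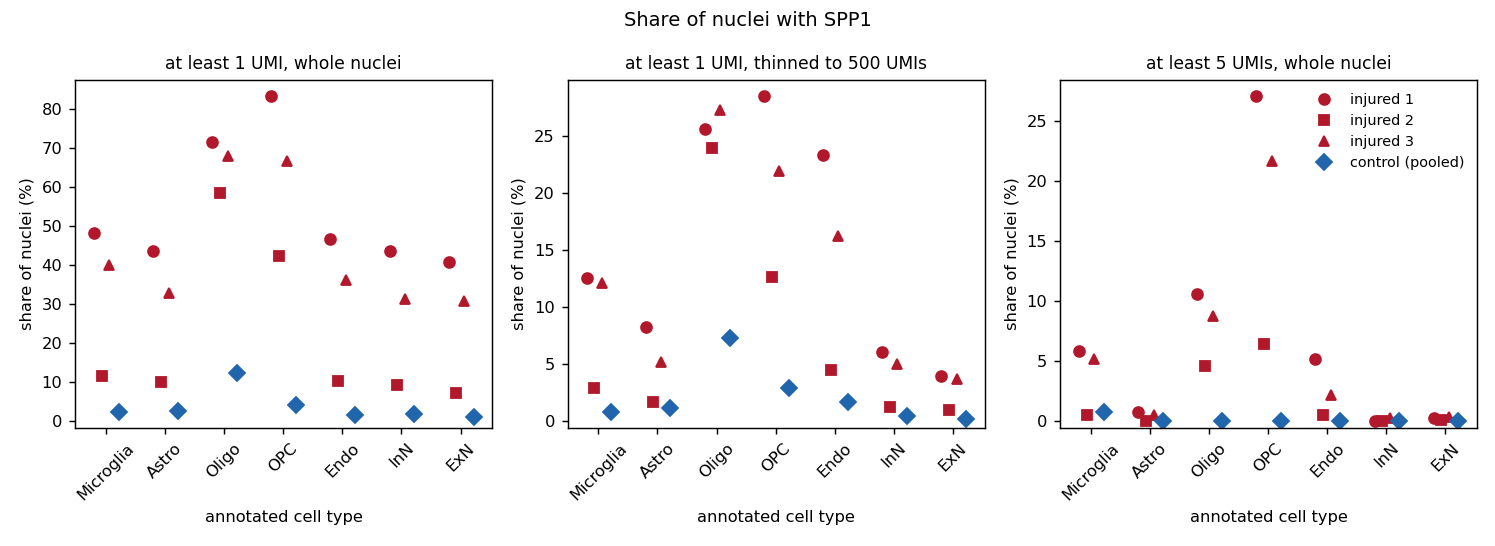
Share of nuclei (vertical, percent) with at least 1 SPP1 UMI, with at least 1 after thinning to 500 UMIs, and with at least 5, by cell type (horizontal), with red symbols for injured and blue diamonds for control libraries. The first panel places Microglia (48.3%, 11.6% and 40.0%) beside InN (43.6%, 9.29% and 31.3%), and the third leaves InN at or near 0%.

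TREM2, the myeloid lipid receptor, was found mostly in Microglia, and its level there was lower in the injured libraries without passing the test. Its level in Microglia was 17.7, 9.19 and 41.5 CPM in injured replicates 1, 2 and 3 and 64.3 CPM in the control library, from 8 control UMIs in 7 nuclei. All 3 injured libraries lay below control, and the fitted log2 fold change was -1.25 (SE 1.48, edgeR adjusted p = 0.673). Without injured replicates 1, 2 and 3 in turn that estimate was -1.09, -0.90 and -1.98. Microglia gave 84.9%, 81.5% and 81.6% of the TREM2 UMIs of the injured libraries while giving 33.7%, 14.7% and 18.6% of all UMIs.

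Outside Microglia, mean injured levels of TREM2 were 4.47 CPM in Endo and 0.858 to 1.54 CPM in the other 5 cell types, of which InN had 1.11 CPM. Of the 47 TREM2 UMIs of injured Endo, 30 came from deposited cluster 19, low in the endothelial marker FLT1. Endo cluster 14, high in FLT1, had a mean of 2.34 CPM. Microglia lay above Endo in all 3 animals without overlap, and the ranges of all lower neighbours overlapped. Control nuclei held 0 TREM2 UMIs in Astro, OPC, Endo and InN, so no fold is given there. In whole nuclei, 5.67%, 1.97% and 10.4% of injured Microglia held a TREM2 UMI, against 5.43% of control Microglia (exact 95% interval 2.21 to 10.9). At 500 UMIs per nucleus these shares were 0.779%, 0.483% and 1.94%, against 3.88% in control Microglia.

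GPNMB was likewise highest in Microglia in both cohorts. It was at 75.5, 50.4 and 83.0 CPM in injured Microglia and at 137 CPM in control Microglia, from 17 UMIs. The 3 injured values were below control, with a log2 fold change of -0.72 (SE 0.45, edgeR adjusted p = 0.437). A GPNMB UMI was found in 17.7%, 7.69% and 16.1% of injured Microglia and 12.4% of control Microglia (exact 95% interval 7.26 to 19.4), against 2.76%, 1.28% and 1.66% of injured InN and 1.19% of control InN. With nuclei thinned to 500 UMIs the shares were 2.59%, 1.52% and 3.29% of injured Microglia against 7.75% of control Microglia, so that all 3 injured shares lay below control, where without thinning replicates 1 and 3 lay above it. GPNMB in Microglia was 17.1, 19.7 and 25.8 times its level in InN of the same injured library, and 32.4 times in control. SPP1 in Microglia was 4.57, 3.68 and 5.01 times its level in InN, and 10.4 times in control, from 8 Microglia UMIs. For both genes the control ratio lay above all 3 injured ratios.

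OPC were the second cell type for GPNMB, at 27.1, 33.9 and 28.1 CPM in the injured libraries and 42.8 CPM in control (8 UMIs), below Microglia and above Endo in all 3 animals without overlap. Their fitted log2 fold change was -0.40 (SE 0.46, edgeR adjusted p = 0.697). In Astro GPNMB was at 10.7, 11.96 and 6.26 CPM against 4.62 CPM, from 4 control UMIs, and the fitted rise of 1.14 was not called (SE 0.74, edgeR adjusted p = 0.334). Endo, Oligo, InN and ExN had mean injured levels of 3.28 to 10.5 CPM.

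LPL, the lipoprotein lipase, was highest in astrocytes. Astro held 22.4, 17.8 and 19.6 CPM in injured replicates 1, 2 and 3 and 31.2 CPM in the control library, from 27 UMIs. Injured astrocytes lay below control in all 3 libraries, by a log2 fold change of -0.54 that was not called (SE 0.32, edgeR adjusted p = 0.287). Astro ranked first in both cohorts and lay above Endo (8.22, 4.53 and 10.6 CPM) in all 3 animals without overlap.

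In Microglia LPL was at 1.41, 1.81 and 1.001 CPM, against 1.60, 0.183 and 1.98 CPM in InN of the same libraries. Its share of injured Microglia nuclei was 0.361% to 0.483%, and 0 of 129 control Microglia held a UMI, which allows a share of up to 2.33%. Both cohorts were at or under the level of 3 control UMIs in Microglia, so no fold is given.

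The difference between the Microglia effect and the Astro effect was tested directly over both cell types, with the library as a block. It was 0.06 for SPP1 (SE 1.70, edgeR adjusted p = 1) and -1.93 for GPNMB (SE 0.87, edgeR adjusted p = 0.297), the latter being negative since GPNMB lay below control in Microglia and above it in Astro in all 3 animals. Neither was called, among 1.31% of 13492 genes called. TREM2 in Microglia minus ExN gave -3.94 (SE 1.22, edgeR adjusted p = 0.0646), with 2 control UMIs in ExN.

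Microglia held several deposited clusters, and the members were distributed differently among them. Clusters 6 (3698 nuclei) and 21 (1798 nuclei) both held markers of monocytes and macrophages. The 4 resident markers summed to 335 CPM in cluster 6 and 359 CPM in cluster 21. In cluster 6 that sum came almost wholly from CSF1R (219 CPM) and AIF1 (114 CPM), with CX3CR1 and SALL1 at 0.981 CPM each. In cluster 21 CX3CR1 was at 29.1 CPM, SALL1 at 48.2 CPM, CSF1R at 198 CPM and AIF1 at 83.6 CPM. The 9 monocyte and macrophage markers summed to 3609 CPM in cluster 6 and 2129 CPM in cluster 21, with CD163 (736 against 226 CPM) higher in cluster 6 and S100A9 (8.70 against 152 CPM) higher in cluster 21. Cluster 16 (2216 nuclei, median 1497 UMIs) held the lymphocyte markers SKAP1 (443 CPM), MS4A1 (136 CPM) and CD3E (96.3 CPM), and its 7 lymphocyte markers summed to 975 CPM against 79.5 and 65.3 CPM in clusters 6 and 21. These clusters were made from the same nuclei, so the values below carry no test.

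TREM2 was highest in cluster 21 in each animal, at 34.3, 25.6 and 80.8 CPM, against 12.3, 1.67 and 23.7 CPM in cluster 6 and 3.16, 2.55 and 12.5 CPM in cluster 16. SPP1 was highest in cluster 6 in replicates 1 and 3, with 576 and 499 CPM there, 340 and 344 CPM in cluster 16 and 194 and 273 CPM in cluster 21. In replicate 2 the order was the reverse, with 63.9, 85.7 and 98.5 CPM in clusters 6, 16 and 21. At 500 UMIs per nucleus, the share with SPP1 in replicates 1 and 3 was highest in cluster 16 (16.5% and 14.1%), against 12.6% and 13.1% in cluster 6 and 7.98% and 8.43% in cluster 21. In replicate 2 cluster 16 was lowest, at 2.39%, against 2.74% in cluster 6 and 3.97% in cluster 21. GPNMB was at 104, 51.2 and 114 CPM in cluster 21, at 73.7, 61.3 and 77.0 CPM in cluster 6 and at 16.4, 9.33 and 27.9 CPM in cluster 16.

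Set against all control Microglia, cluster 21 alone gave log2 fold changes of 1.74 for SPP1 (edgeR adjusted p = 0.317), -0.26 for TREM2 (edgeR adjusted p = 0.912) and -0.41 for GPNMB (edgeR adjusted p = 0.724). Leaving out cluster 16 gave 2.55 for SPP1, -1.05 for TREM2 and -0.51 for GPNMB, and edgeR called none of the 3 in either setting. Among Endo, cluster 19 (2005 nuclei) held SPP1 at 1309.9, 180 and 1096 CPM with the endothelial marker FLT1 at 21.6 CPM and the neuronal marker SYT1 at 2763 CPM. Cluster 14, with FLT1 at 2207 CPM, held SPP1 at 203, 28.5 and 135 CPM. Of the 3368 SPP1 UMIs of injured Endo, 2370 came from cluster 19, and the fitted log2 fold change in Endo was 3.37 without it (edgeR adjusted p = 0.184) against 4.65 with it.

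**Figure D4:**
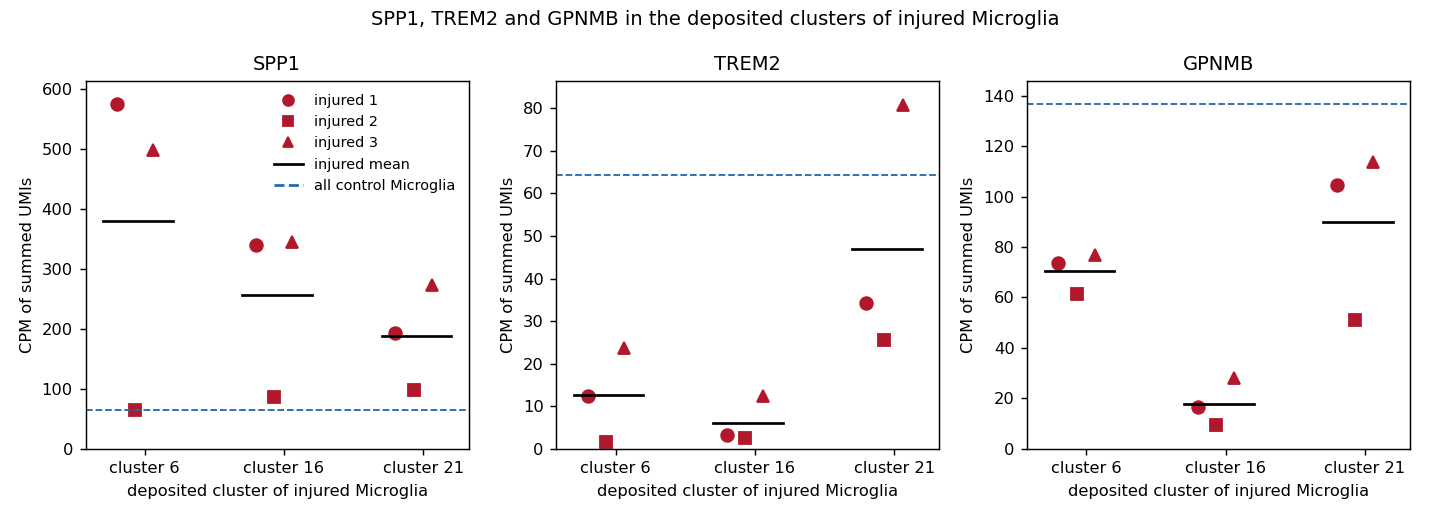
CPM of SPP1, TREM2 and GPNMB (vertical) in deposited clusters 6, 16 and 21 of injured Microglia (horizontal), with 1 symbol per animal, black lines at the mean of 3 animals and dashed blue lines at the level of all control Microglia. TREM2 is highest in cluster 21 in each animal, and SPP1 is highest in cluster 6 in replicates 1 and 3.

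At 1000 UMIs per nucleus, 7133 injured Microglia remained, of which 15.2% held an SPP1 UMI, 4.77% GPNMB, 2.05% TREM2 and 0.21% LPL. SPP1 and GPNMB were found together in 66 nuclei. Among nuclei with GPNMB, 20.4%, 5.56% and 26.7% held SPP1 in injured replicates 1, 2 and 3, against 20.7%, 5.52% and 18.9% of those without GPNMB. The shares were thus near each other in replicates 1 and 2. In cluster 6 alone they were 24.1%, 6% and 31.0% of nuclei with GPNMB, from 41 nuclei with both, against 22.2%, 4.74% and 20.4% of those without. In cluster 21 they were 17.2%, 5.56% and 22.9%, from 22 nuclei with both, against 15.6%, 9.15% and 17.1%, so that replicate 2 went the other way there. SPP1 and TREM2 met in 28 nuclei, being 9 of 42, 2 of 23 and 17 of 81 nuclei with TREM2, and SPP1 was in 20.7%, 5.49% and 19.3% of those without TREM2. TREM2 and GPNMB met in 8 nuclei, and each pair with LPL in at most 1.

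Splitting these nuclei by an SPP1 UMI gave 1083 nuclei with SPP1. At this depth SPP1 was found in 20.7%, 5.52% and 19.4% of Microglia and in 10.3%, 2.65% and 10.4% of InN, the background for free RNA, and the part of free RNA in the class with SPP1 was not tested. With the animal as a block, 2 of 9736 genes were called (0.0205%), both higher with SPP1. CTSK, a lysosomal cysteine protease of osteoclasts and macrophages, was at 203, 120 and 149 CPM with SPP1 and 73.0, 87.0 and 73.3 CPM without, a log2 difference of 1.14 (SE 0.16, edgeR adjusted p = 0.000209). TFRC, the transferrin receptor, was at 291, 241 and 235 CPM against 129, 108 and 173 CPM, a difference of 0.90 (SE 0.13, edgeR adjusted p = 0.00054).

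Both genes were higher with SPP1 in all 3 animals. Neither was called without injured replicate 1 (edgeR adjusted p = 0.9998 for both), by DESeq2 or without the animal block. CTSK was also not called with nuclei thinned to 500 UMIs. In cluster 6 alone both were called, CTSK by 1.04 (edgeR adjusted p = 1.03e-06) and TFRC by 1.16 (edgeR adjusted p = 1.25e-11). In cluster 21 alone TFRC differed by -0.36, and CTSK did not pass the filter on low counts there, so it was not tested. Over all clusters, TREM2 differed by 0.20 (SE 0.32, edgeR adjusted p = 0.975) and GPNMB by 0.12 (SE 0.21, edgeR adjusted p = 0.976). Of the 56 pathway genes tested there, 0 were called, 13 had an unadjusted p below 0.05 (as did 532 of all 9736 genes), and the median difference was 0.12 against -0.0013 over all genes.

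The pathways around the members were followed with 7 lists of 74 genes in all, of which 60 were listed for both cohorts. In Microglia 59 were tested and 0 were called by edgeR, as were 0 of all 13470 genes (0%). Of the 59, 27 had an unadjusted p below 0.05, as had 2857 of all 13470 genes. An adjusted p below 0.05 was reached by 11 of the 59 and by 2.58% of all genes, and DESeq2 called 11 of the 59 and 318 of all genes. Their median log2 fold change was 1.55 against 0.42 over all genes, or 0.73 against -0.30 with genes lacking control UMIs set to their bound against 3 control UMIs. Estimates were positive for 45 of the 59 (76.3%) and for 61.8% of all genes tested, beside which the counts of positive estimates below stand.

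Lipid efflux genes in Microglia had positive estimates for 6 of 6 tested, with a median of 3.71, or 2.99 with bounds. ABCA1, the cholesterol exporter, was at 763, 300 and 764 CPM against 72.3 CPM (3.32, SE 0.87, edgeR adjusted p = 0.108). NR1H3, the liver X receptor alpha that controls it, was at 122, 125 and 99.6 CPM against 8.03 CPM from 1 control UMI, a ratio of 14.5 (95% counting interval 2.60 to 572). CLU, an apolipoprotein, was at 181, 634 and 175 CPM, also against 1 control UMI. All 3 injured libraries lay above control for each of these genes.

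Among lipid uptake and hydrolysis genes, 11 of 13 had positive estimates, with a median of 1.79, or 0.43 with bounds. LIPA, the lysosomal acid lipase, was at 602, 819 and 578 CPM against 153 CPM (2.38, SE 0.37, edgeR adjusted p = 0.0477). NPC2, which moves cholesterol out of lysosomes, was at 281, 336 and 333 CPM against 80.3 CPM (2.23, SE 0.30, edgeR adjusted p = 0.0383). The scavenger receptor MSR1 was at 198, 242 and 217 CPM against 72.3 CPM (1.85, SE 0.32, edgeR adjusted p = 0.0579).

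The 8 tested lysosomal genes all had positive estimates in Microglia, with a median of 1.72, or 1.35 with bounds. The cathepsin CTSB was at 374, 291 and 373 CPM against 32.1 CPM from 4 control UMIs (3.68, SE 0.37, edgeR adjusted p = 0.0282), and CTSS was at 681, 661 and 545 CPM against 201 CPM (1.90, SE 0.25, edgeR adjusted p = 0.0383). Of the osteopontin receptors, 5 of 6 had positive estimates, and the integrin chain ITGA4 was at 250, 254 and 235 CPM against 0 control UMIs, at least 10.2-fold higher against 3 control UMIs. The phagocytic lectin LGALS3 was at 268, 278 and 252 CPM, also against 0 control UMIs, at least 11.03-fold higher.

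Of 8 tested TREM2 signalling genes, 3 had positive estimates in Microglia, and the median was -0.19. INPP5D, the lipid phosphatase that counters this pathway, was at 969, 866 and 961 CPM against 2611 CPM (-1.24, SE 0.14, edgeR adjusted p = 0.0307), and the kinase SYK at 351, 311 and 373 CPM against 185 CPM (1.15, SE 0.22, edgeR adjusted p = 0.0664). Phagocytosis receptors had positive estimates in 9 of 13, among them ITGAM (0.41) but not MERTK (-0.38). LPL regulators had them in 3 of 5, and SORL1, a sorting receptor that binds LPL and APOE, was at 86.8, 83.7 and 123 CPM against 1093 CPM from 136 control UMIs (-3.23, SE 0.26, edgeR adjusted p = 0.0206).

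In Astro 7 of the 59 tested genes were called, 5 higher and 2 lower, beside 1.5% of all genes. Some myeloid markers were also higher in injured Astro. The 5 Microglia markers summed to 302, 258 and 202 CPM against 90.2 CPM for the 4 listed in control, CD74 was at 169, 143 and 96.6 CPM against 1.16 CPM, and P2RY12 at 54.7, 42.4 and 50.4 CPM against 55.5 CPM. GPR34 was lower, at 7.47, 4.10 and 7.05 CPM against 17.3 CPM. The 4 other resident markers summed to 33.1 to 33.8 CPM against 30.1 CPM, with CX3CR1 and AIF1 at 0 in control. The 9 monocyte and macrophage markers summed to 143 to 171 CPM, against 33.5 CPM for the 7 listed in control, where LYVE1, CCR2 and LYZ were at 0, and VCAN made up 77.5, 115 and 67.6 CPM of the injured sums. The 3 Endo markers summed to 285, 418 and 339 CPM against 113 CPM, most of it IGFBP7 at 226, 352 and 280.3 CPM against 72.8 CPM. Other sums were lower in injured Astro. The 6 ExN markers summed to 1072, 1056 and 977 CPM against 2093 CPM. The 6 Astro markers summed to 7652, 8765 and 9194 CPM against 14713 CPM. Most of that was SLC1A2 at 3457, 4862 and 4096 CPM against 12215 CPM, while SLC1A3, GFAP, AQP4 and NDRG2 were higher. The part of such RNA in the rises and falls below was not tested. CD44, the hyaluronan and osteopontin receptor, rose from 19.7 CPM to 372, 436 and 511 CPM (4.60, SE 0.35, edgeR adjusted p = 0.00157), and the integrin chain ITGB1 from 34.7 CPM to 218, 156 and 167 CPM (2.48, SE 0.30, edgeR adjusted p = 0.00442). LIPA rose from 94.8 CPM to 529, 705 and 384 CPM (2.62, SE 0.38, edgeR adjusted p = 0.00718). LGALS3 rose from 3 control UMIs to 77.1, 62.5 and 64.2 CPM, a ratio of 19.2 (95% counting interval 6.55 to 93.6), and the lysosomal growth factor precursor GRN rose by 3.02 (SE 0.40, edgeR adjusted p = 0.00562).

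MERTK, the receptor with which astrocytes and microglia engulf debris, fell in Astro from 1315 CPM to 461, 481 and 514 CPM (-1.32, SE 0.17, edgeR adjusted p = 0.00556), and SORL1 fell from 213 CPM to 67.3, 72.8 and 71.5 CPM (-1.48, SE 0.19, edgeR adjusted p = 0.00528). Without injured replicate 1, GRN, LIPA, MERTK and SORL1 were not called (edgeR adjusted p = 0.0124 to 0.0238), which left CD44, ITGB1 and LGALS3. CLU had the highest injured level of its list in Astro, at 800, 1050.0 and 927 CPM against 450 CPM (1.16, edgeR adjusted p = 0.0217), and was not called. The median over the 59 genes in Astro was 0.63 against 0.05 over all genes, or 0.52 against 0.04 with bounds.

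Several of these genes also rose in neurons. GRN was called in 5 of 7 cell types (Astro, Endo, ExN, InN and Oligo), by 1.51 in ExN and 1.58 in InN, and CLU in Endo, ExN, InN and Oligo, by 1.99 in InN. LGALS3 was called in Astro, Endo and ExN. CD44 was called in Astro alone, with an estimate of 0.93 in InN (edgeR adjusted p = 0.0841). Microglia markers were also higher in these cell types. In ExN the 5 summed to 249, 174 and 145 CPM against 61.5 CPM for the 4 listed in control. In InN they summed to 238, 190 and 148 CPM against 62.9 CPM, and in Endo to 853, 623 and 469 CPM against 206 CPM. The part of such RNA and of free RNA in these rises was not tested. Over all lists, 10 of 59 genes were called in Endo (6.18% of all genes), 4 of 60 in ExN (3.85%), 3 of 57 in InN (3.41%) and 3 of 56 in Oligo (0.774%). In OPC edgeR called 0 of 54 (0.0697% of all genes), where 23 of the 54 and 2279 of all 11476 genes had an unadjusted p below 0.05 and DESeq2 calls were not counted by list.

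**Figure D5:**
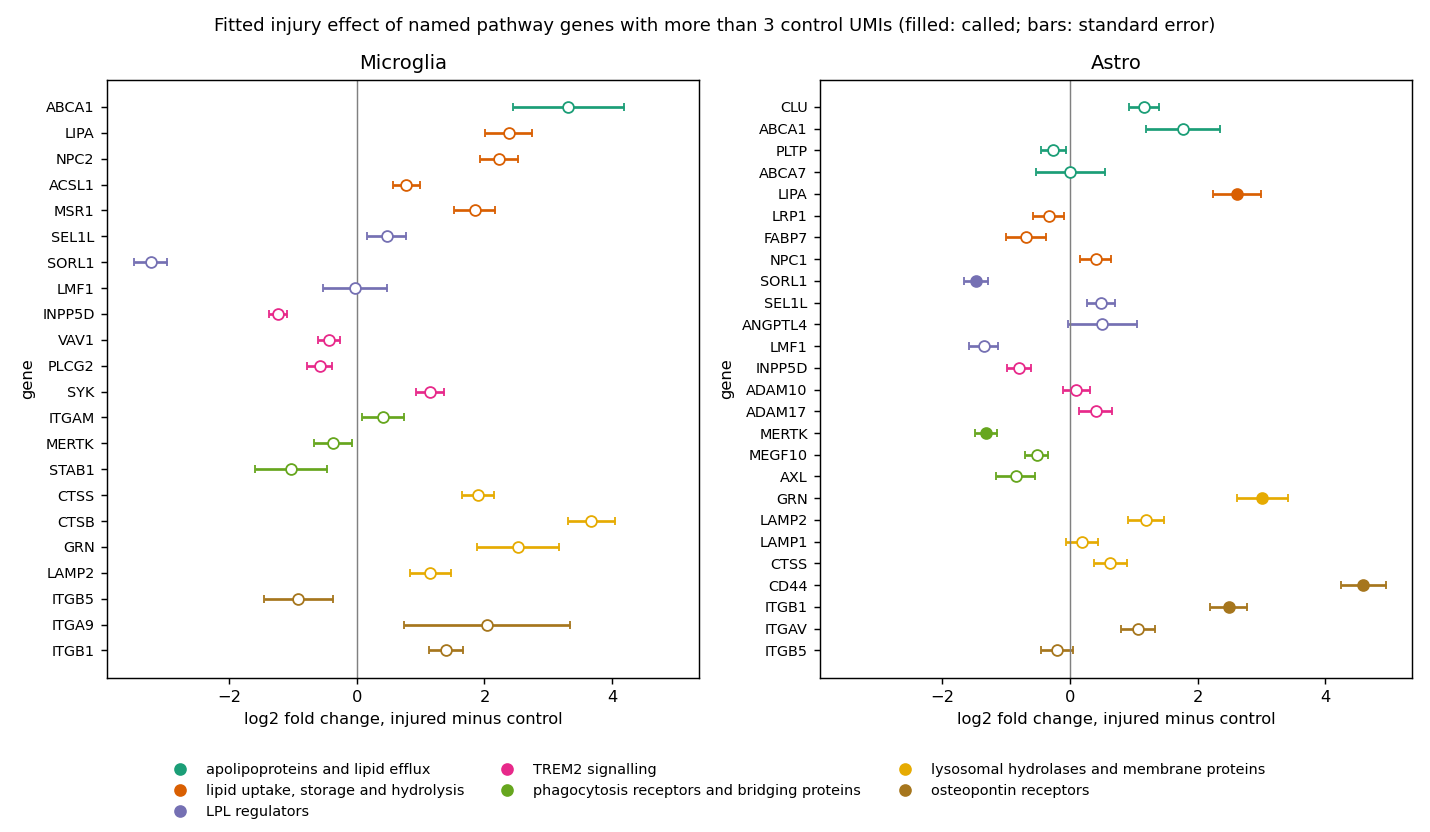
Fitted log2 fold change between injured and control libraries (horizontal, bars are standard errors) of up to 4 genes per pathway list with more than 3 control UMIs, in Microglia (left) and Astro (right), colored by list. Filled symbols are called. No symbol is filled in Microglia, where CTSB (3.68) and ABCA1 (3.32) lie highest and SORL1 (-3.23) lowest, and 6 are filled in Astro.

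Across the 60 list genes, the difference between the effects in Microglia and Astro was called for 2, beside 1.31% of all genes. The CTSB effect was higher in Microglia by 3.11 on the log2 scale (SE 0.60, edgeR adjusted p = 0.00444), and the SORL1 effect was lower, with a difference of -1.82 (SE 0.25, edgeR adjusted p = 0.000237). In Astro CTSB was at 39.7, 25.6 and 27.7 CPM against 23.1 CPM. The CTSB difference was not called without the library block, with thinned nuclei, in cluster 21 alone, without injured replicate 1 or without injured replicate 2, and the SORL1 difference was not called without injured replicate 1 or in cluster 21 alone.

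Genes whose levels most resembled each member over the 21 injured sums of library and cell type were taken by Pearson's r of log2(CPM + 1), over 13747 genes with at least 200 injured UMIs. For TREM2 these were VSIG4 (r = 0.95), CD163 (0.94) and CCL14 (0.93). For GPNMB they were RAB8B (0.96), PELI1 (0.96) and LRR1 (0.94), for SPP1 PSRC1 (0.92), TMEM237 (0.86) and RNF125 (0.86), and for LPL C16orf89 (0.94), ERBB2 (0.94) and GLUD1 (0.94). The 21 points share 3 libraries and their depth, so these values are a description. All 3 genes named for TREM2 were replaced with Spearman's rho (F13A1, MKI67 and SEC63) and with control sums added (SELPLG, SLC11A1 and TBRG1). All 3 for LPL were replaced with control sums added (TLDC1, CCNJL and FADS2), as were 2 of 3 for SPP1 and for GPNMB.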

How the data were processed

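Nuclei were profiled by droplet single-nuclei RNA sequencing. The authors counted UMIs with Cell Ranger 3.1.0 (version per the submitters' processing notes) on calJac3 with an Ensembl annotation, removed doublets with Scrublet (injured) or by a Seurat filter on genes per nucleus (control), and assigned cell types to clusters. The deposited counts are raw UMI counts per gene and nucleus, and the totals of all 29537 injured and 8610 control nuclei were checked to equal those in the deposited tables of nuclei. No nucleus was removed. Sums of raw counts were formed for each cell type of each library. Genes listed in both tables that passed the filter on low counts (filterByExpr), 11476 to 15122 per cell type, were tested. The test was edgeR 4.0.16 in R 4.3.3 (TMM, glmQLFit, glmQLFTest, Benjamini-Hochberg adjustment), with steps tested on simulated data. The comparison of Microglia by an SPP1 UMI started from all genes listed for the injured cohort except SPP1. DESeq2 1.42.0 was an alternative. Shares above 0 carry exact (Clopper-Pearson) 95% intervals, and a share of 0 is given with 3 nuclei of the total as its limit, both for counting error only. Numbers of 0 control UMIs were bounded by 3 UMIs over the control library. For equal depth, UMIs of each nucleus were drawn at random down to 500 or 1000. In the class comparison, SPP1 made the classes because its share of thinned Microglia was nearest 50%. Named list genes were those called with the largest change, then those of highest injured level, up to 4 per list and cell type. The members, lists and tests were chosen with earlier results of these data known. GLUD1 was named from its Ensembl identifier. No genome of the files' build was used here, and no coordinates or sequences are given. Python 3.11.15 was used for other steps.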

Additional observations from a re-analysis of the deposited data

Results flagged for a closer look

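The injury effect on SORL1 differed between Microglia and Astro by -1.82 on the log2 scale (SE 0.25, edgeR adjusted p = 0.000237), from a test of the difference itself. SORL1 was at 83.7 to 123 CPM against 1093 CPM in Microglia (-3.23, not called) and at 67.3 to 72.8 CPM against 213 CPM in Astro (-1.48, called). The difference was -1.46 with cluster 21 as the only injured Microglia (edgeR adjusted p = 0.0203) and -1.68 without injured replicate 1 (edgeR adjusted p = 0.0152).

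The effect on CTSB differed by 3.11 (SE 0.60, edgeR adjusted p = 0.00444). It rested on 4 control UMIs in Microglia and 20 in Astro. The difference was 3.104 without the library block (edgeR adjusted p = 0.0202), 2.47 with nuclei thinned to 500 UMIs (edgeR adjusted p = 0.313), 2.76 with cluster 21 only (edgeR adjusted p = 0.0407), 3.34 without injured replicate 1 (edgeR adjusted p = 0.0128) and 3.2001 without injured replicate 2 (edgeR adjusted p = 0.0364). The causes of both differences were not tested.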

How the results depend on the processing

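Of 463 alternative values of a fold change, 407 kept their direction and side of the threshold, 26 lost and 14 gained a call, and 16 changed sign. The number of genes called was within 1.5 times in 54 of 127 alternatives. Of the other values, 99 of 196 shares of nuclei, 18 of 56 levels and 6 of 8 lists of genes most like a member moved, the shares under thinning or a higher UMI minimum and the levels with at most 2500 genes or as means over nuclei. No paired analysis was possible because the control cohort is 1 pooled library, so no injured library has a control partner. The blocks by library or animal elsewhere pair sums from 1 library. Settings that split or leave out clusters were chosen after seeing the data. Where a count moved, the cause was not tested.

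Genes called in Microglia, Astro, Endo, ExN, InN, Oligo and OPC numbered 347, 891, 1802, 1834, 1433, 502 and 136 at an adjusted p below 0.05. DESeq2 called 318 in Microglia, 350 in Astro, 1193 in ExN, 204 in Oligo and 67 in OPC. Thinning to 500 UMIs gave 99 in Microglia, 87 in Astro, 338 in Endo, 46 in ExN and 72 in InN. Nuclei with at most 2500 genes gave 18 in Microglia, 82 in Astro, 243 in ExN, 136 in Oligo and 25 in OPC. No filter on low counts gave 338 in Astro, 204 in Oligo and 40 in OPC. Scaling by library size alone gave 4 in Microglia and 0 in OPC, and it moved the median of all genes by -0.24 in Microglia and by -0.099 to -0.13 in the other cell types. Cluster 21 alone gave 1 in Microglia. Leaving out 1 injured replicate gave 0 to 395 in Microglia, 82 to 716 in Astro, 513 to 1617 in Endo, 77 to 920 in ExN, 245 to 1541 in InN, 48 to 195 in Oligo and 0 to 820 in OPC, and SPP1 in Microglia ranged from 2.14 to 2.93.

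Pathway genes called in Microglia numbered 11 by DESeq2, 4 with thinned nuclei, 11 at an adjusted p below 0.05 and 0 to 13 without 1 injured replicate. In Astro they numbered 3 with thinned nuclei, 3 with at most 2500 genes, 12 at an adjusted p below 0.05 and 3 to 14 without 1 injured replicate. The difference between Microglia and Astro gave 407 calls at an adjusted p below 0.05, 5 of them among the 60 list genes tested. It gave 76 calls with thinned nuclei, 63 for cluster 21 and 49 to 102 without 1 injured replicate. The comparison by an SPP1 UMI gave 8 calls with nuclei thinned to 500 UMIs, 111 unthinned, 0 by DESeq2, 0 without the animal block, 4 with no filter, 5 at an adjusted p below 0.05, 13 in cluster 6, 0 in cluster 21 and 0 to 21 without 1 injured replicate.

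Signs changed for values that were not called, TFRC excepted. The SPP1 effect in Microglia minus Astro was -0.052 with RLE size factors, -0.011 with library size alone, -0.39 in cluster 21 and -0.094 to 0.38 without 1 injured replicate (the lowest without replicate 3). With thinned nuclei the SPP1 difference was 0.13 against ExN, 1.03 against InN, 2.16 against Oligo and 0.96 against OPC, and against Oligo it was -0.95 to 0.39 without 1 injured replicate (the highest without replicate 2). With at most 2500 genes, GPNMB was at 0.012 in ExN and 0.49 in InN, and LPL at 0.19 in ExN. By an SPP1 UMI, TREM2 was at -0.12 and TFRC at -0.36 in cluster 21, and GPNMB at -0.0085 with nuclei thinned to 500 UMIs and -0.11 to 0.31 without 1 injured replicate (the lowest without replicate 3).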
